A study of Mus musculus with 2 samples.

Results

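The 10 genes described here encode actin-binding proteins and the cytoplasmic actins of mouse intestinal epithelium. They are the tropomyosin genes Tpm1, Tpm2, Tpm3 and Tpm4, the calponin genes Cnn2 and Cnn3, the alpha-actinin genes Actn1 and Actn4, and the actin genes Actb and Actg1. They were chosen by symbol from the 37172 genes of the expression table, and all 10 are among the 10593 genes that reached 5 CPM (counts scaled to a total of 1000000 per culture) in either culture. Organoids, clusters of epithelium grown from isolated crypts, came from the proximal small intestine of C57BL/6 wild-type mice and were harvested on day 4. The Matrigel culture, in a basement membrane extract, received medium with EGF at 50 ng/mL, Noggin at 100 ng/mL and R-spondin1 at 400 ng/mL, and held budding organoids. The collagen culture, in type I collagen, held cystic spheres, and its medium also contained 1% bovine serum albumin, 10 mM nicotinamide and 100 ng/mL Wnt3a. Collagen was digested with collagenase at 0.5 mg/mL, and Matrigel was dissolved with a recovery solution.

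Cells of both cultures were marked with hashtags through an EpCAM antibody and captured together as 1 single-cell library. There were 336 collagen cells with 42540314 counts (median 124619 per cell) and 1599 Matrigel cells with 285201649 counts (median 179044 per cell). With 1 suspension per culture, the differences below have no replicate check, and none was tested. The matrix, the medium and the release of the cells cannot be told apart, since all 3 went with the culture. A level is the sum of a gene's counts over the cells of a culture, scaled to CPM. Brackets after a level give its exact 95% Poisson interval, and brackets after a share give its exact 95% Clopper-Pearson binomial interval. Both cover counting error only, not the spread between cells or between repeated cultures. Log2 ratios have 1 CPM added to both levels. A gene is counted as higher or lower past a ratio of 2-fold.

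Actin monomers assemble into filaments that carry the brush border, the cell cortex and the contractile bundles of epithelial cells. Tropomyosins are coiled coils that lie along the filament and set which other proteins can bind it. Calponins bind filaments and tropomyosin-bearing bundles, and alpha-actinins crosslink filaments and anchor them at adhesions. Transcription of many of these genes is controlled by serum response factor (SRF), whose co-activators are held back by unpolymerised actin, and some are also targets of TEAD factors, the partners of YAP and TAZ.

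Upstream sequence is shown for Cnn2, Cnn3 and Tpm2, the genes with the furthest ratios between the cultures. RefSeq entries of build GRCm38.p6 matched 9 of the 10 genes by symbol, in 10 windows, and not Actb. Each line holds the 250 bases before the transcription start, 5′ to 3′ on the strand of the gene, with a CArG box, the sequence bound by SRF, in capitals. The windows lie at chr10:79988350-79988599 on the plus strand for Cnn2, chr3:121426291-121426540 on the plus strand for Cnn3 and chr4:43523555-43523804 on the minus strand for Tpm2.
Cnn2: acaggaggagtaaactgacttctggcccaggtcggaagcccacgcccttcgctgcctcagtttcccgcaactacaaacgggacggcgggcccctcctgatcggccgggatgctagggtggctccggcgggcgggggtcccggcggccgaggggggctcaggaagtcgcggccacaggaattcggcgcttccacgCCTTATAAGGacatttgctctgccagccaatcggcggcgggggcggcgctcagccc
Cnn3: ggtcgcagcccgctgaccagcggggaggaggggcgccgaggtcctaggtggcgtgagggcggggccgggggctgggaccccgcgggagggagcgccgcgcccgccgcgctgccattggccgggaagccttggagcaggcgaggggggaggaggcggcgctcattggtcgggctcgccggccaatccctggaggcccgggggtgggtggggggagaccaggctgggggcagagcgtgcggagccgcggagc
Tpm2: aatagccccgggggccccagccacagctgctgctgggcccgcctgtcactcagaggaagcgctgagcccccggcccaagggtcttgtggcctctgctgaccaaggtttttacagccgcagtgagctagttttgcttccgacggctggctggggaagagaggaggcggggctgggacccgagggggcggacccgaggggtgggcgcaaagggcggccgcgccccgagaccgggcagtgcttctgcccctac
Among the 10 windows, a CArG box was found in those of Cnn2, with its first base 56 bases before the start, and Actg1, 90 bases before it. Only exact matches to CCWWWWWWGG, with W for A or T, were taken, so sites with a mismatch were not looked for. The same search, over both strands, matched 482 of 32851 promoters (1.47%). The TEAD motif GGAATG, searched on both strands, was found in the windows of Tpm1, 56 bases before the start, and Actn4, 216 bases before it, and in 4153 of all promoters (12.6%). No window held both motifs, so no matches overlapped. The windows of Cnn3 and Tpm2 held neither string of letters. A match is a description of sequence and was not tied to binding.

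Of the 10 genes, 3 were past 2-fold toward collagen cells, namely Tpm2, Tpm4 and Cnn2 (against 8.21% of the 10593 genes). Toward Matrigel cells it was 1, Cnn3 (against 8.91% of all). The other 6, Tpm1, Tpm3, Actn1, Actn4, Actb and Actg1, lay within 2-fold, all on the collagen side of 0. The median log2 ratio was 0.74 over the 10 genes and -0.02 over all genes. The plot of levels by culture shows paralogues of 1 family far apart, with Cnn2 and Cnn3 on opposite sides.

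**Figure D1:**
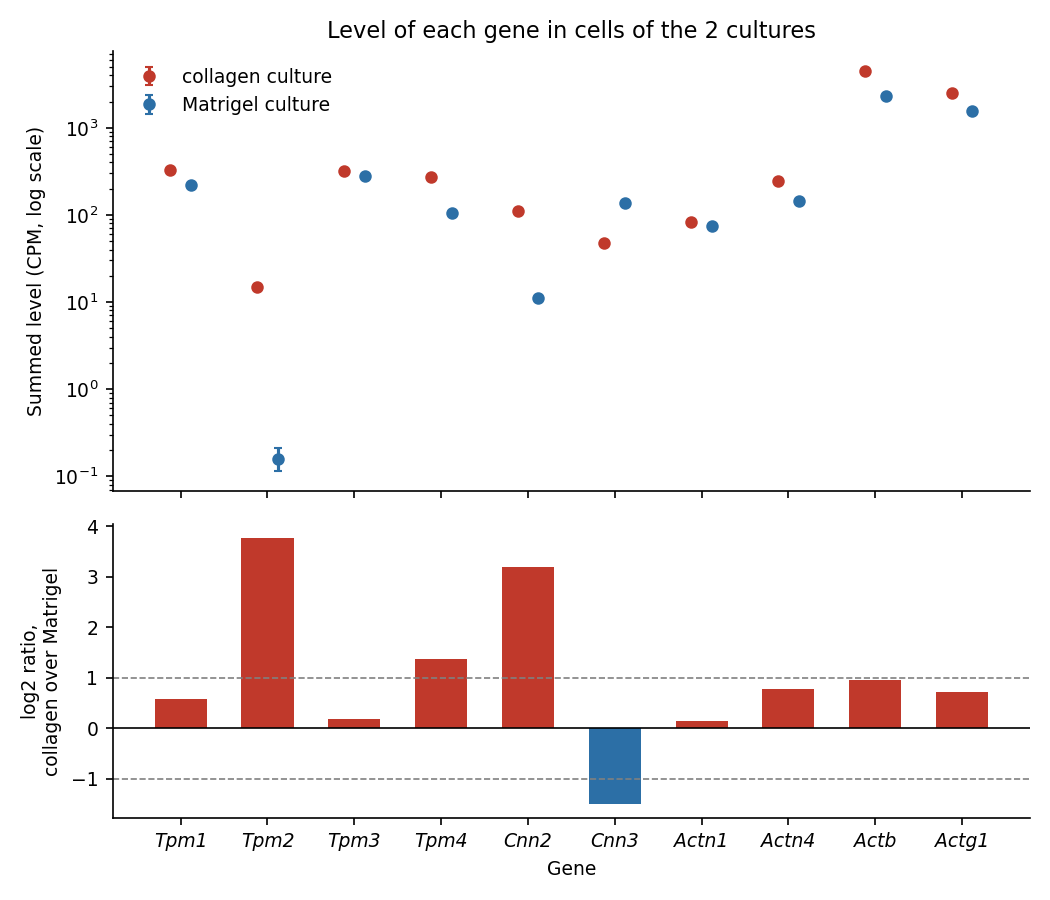
Upper panel: summed level of each gene (CPM, log axis) in 336 collagen cells (red) and 1599 Matrigel cells (blue), with exact 95% Poisson intervals, which are narrower than the points except for Tpm2 in Matrigel. Lower panel: log2 ratio of collagen over Matrigel with 1 CPM added, with dashed lines at 2-fold. Tpm2 (3.77) and Cnn2 (3.19) stand furthest toward collagen, and Cnn3 (-1.51) is the only bar below 0.

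Tpm2 encodes beta-tropomyosin, best known from muscle. It stood at 14.8 CPM (13.7 to 16.01) in collagen cells and at 0.157 CPM (0.115 to 0.211) in Matrigel cells, a 94.0-fold ratio of levels and a log2 ratio of 3.77. These sums rest on 630 and 45 counts. Few cells carried the gene even in collagen. A count was found in 93 of 336 collagen cells (27.7%) and in 39 of 1599 Matrigel cells (2.44%). Thinning of all cells to 77972 counts left 264 collagen cells, 23.5% of them with Tpm2 (18.5 to 29.1), and 1477 Matrigel cells, 0.880% of them with Tpm2 (0.469 to 1.5). The median collagen cell had no count, the cell at the 90th percentile stood at 56.5 CPM and the highest at 501 CPM. The highest Matrigel cell held 5 counts, and with at least 2 counts asked of a thinned cell the shares were 18.6% and 0.203%. The 5 collagen cells with the most Tpm2 held 20.8% of its counts, and without the 5 highest cells of each culture the log2 ratio was 3.64.

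Tpm4 encodes a cytoskeletal tropomyosin of cells outside muscle. Its level was 273 CPM (268 to 278) in collagen and 105 CPM (104 to 106) in Matrigel cells, a ratio of 2.60-fold. In contrast to Tpm2, nearly every cell carried it, with a count in 99.6% of thinned collagen and 97.3% of thinned Matrigel cells. The level in single collagen cells ran from 67.2 CPM at the 10th percentile through a median of 222 CPM to 535 CPM at the 90th. In Matrigel cells the same points were 27.1, 91.7 and 189 CPM. The cultures overlapped, and 60.4% of collagen cells lay above the 90th percentile of Matrigel cells.

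Tpm1 and Tpm3, the most widely expressed tropomyosin genes, differed less. Tpm1 stood at 326 CPM (320 to 331) against 219 CPM (217 to 221), a log2 ratio of 0.57. Tpm3 stood at 322 CPM (316 to 327) against 283 CPM (281 to 285), a log2 ratio of 0.19. Both genes had a count in all thinned cells of both cultures. Tpm3 had fractional values in 93.7% of the cells with the gene, which happens where reads match several similar sequences, so its level is uncertain. The counts are per gene, and the isoforms that each tropomyosin gene makes by alternative splicing cannot be told apart in them.

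Because the 4 genes differed unequally, the make-up of tropomyosin counts differed between the cultures. The summed level was 935 CPM in collagen and 607 CPM in Matrigel cells. Tpm4 made up 29.2% of these counts in collagen (28.7 to 29.6) and 17.3% in Matrigel (17.1 to 17.5). Tpm3 made up 34.4% (33.9 to 34.9) and 46.6% (46.4 to 46.8), and Tpm1 34.8% and 36.1%. Tpm2 was a small share in both, at 1.58% (1.46 to 1.71) and 0.026% (0.019 to 0.035). These shares are not corrected for transcript length, so only the same gene is compared across cultures. Between paralogues, the log2 ratio of Tpm2 exceeded that of Tpm4 by 2.40, that of Tpm1 by 3.20 and that of Tpm3 by 3.59, and Tpm4 exceeded Tpm3 by 1.18.

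The calponin genes went opposite ways. Cnn2, the calponin gene found in many cell types outside smooth muscle, stood at 110 CPM (107 to 113) in collagen and 11.1 CPM (10.7 to 11.5) in Matrigel cells, a 9.86-fold ratio. Cnn3, which encodes the acidic calponin, stood at 47.9 CPM (45.9 to 50.1) in collagen and 139 CPM (137 to 140) in Matrigel cells, so it was 2.89-fold higher in Matrigel. Their log2 ratios, 3.19 and -1.51, differed by 4.70.

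Both calponins differed across most of the cells rather than in a few. Cnn2 was found in 94.3% of thinned collagen cells (90.8 to 96.8) and 34.1% of thinned Matrigel cells (31.7 to 36.6). Its median was 89.6 CPM in collagen cells and 0 in Matrigel cells, and 79.2% of collagen cells lay above the 90th percentile of Matrigel cells, 35.2 CPM. Cnn3 was found in 75.8% of thinned collagen cells (70.1 to 80.8) and 97.9% of thinned Matrigel cells (97.03 to 98.6). Its median was 27.7 CPM in collagen and 128 CPM in Matrigel cells, and 8.93% of collagen cells lay above the Matrigel median. At the depth as deposited, the shares of cells were 92.3% and 42.3% for Cnn2 and 75.3% and 96.4% for Cnn3. With at least 2 counts asked of a thinned cell, they were 87.1% and 19.4% for Cnn2 and 63.6% and 95.3% for Cnn3.

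**Figure D2:**
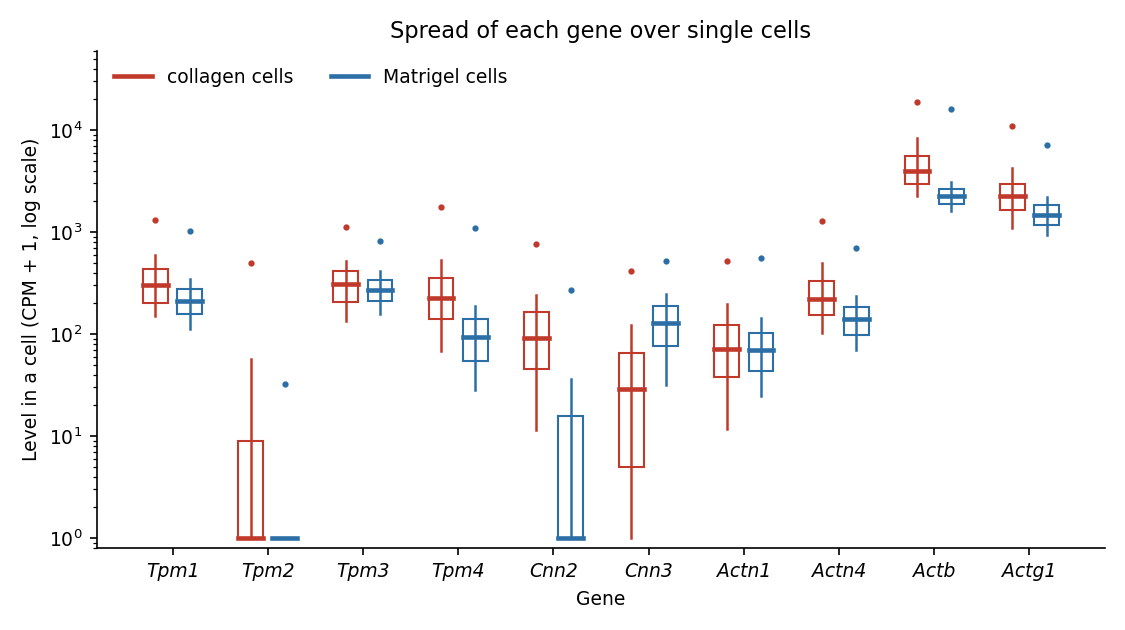
Level of each gene in single cells (CPM + 1, log axis) for 336 collagen cells (red) and 1599 Matrigel cells (blue). Boxes run from the 25th to the 75th percentile, thick lines are medians, thin lines run from the 10th to the 90th percentile and dots are the highest cells. The Cnn2 boxes are apart, with a Matrigel median of 0 and a collagen median of 89.6 CPM, the Cnn3 boxes are apart the other way, and Tpm2 is at 0 in the median cell of both cultures.

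The sum of the calponin genes was 158 CPM in collagen and 150 CPM in Matrigel cells, so the family totals were close while their make-up differed. Cnn2 made up 69.5% of calponin counts in collagen (68.4 to 70.6) and 7.42% in Matrigel (7.18 to 7.68). Cnn3 made up 30.4% (29.3 to 31.5) and 92.5% (92.2 to 92.7). The smooth muscle calponin gene Cnn1 was 0.061% and 0.095%. More Cnn2 than Cnn3 counts were found in 72.3% of collagen cells (67.2 to 77.04) and 4.25% of Matrigel cells (3.32 to 5.36), or in 69.3% and 3.32% of thinned cells. Within a culture the calponins hardly followed each other from cell to cell. The Spearman correlation between Cnn2 and Cnn3 was -0.062 over 264 thinned collagen cells and -0.081 over 1477 thinned Matrigel cells, given as descriptions of cells that share 1 library.

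**Figure D3:**
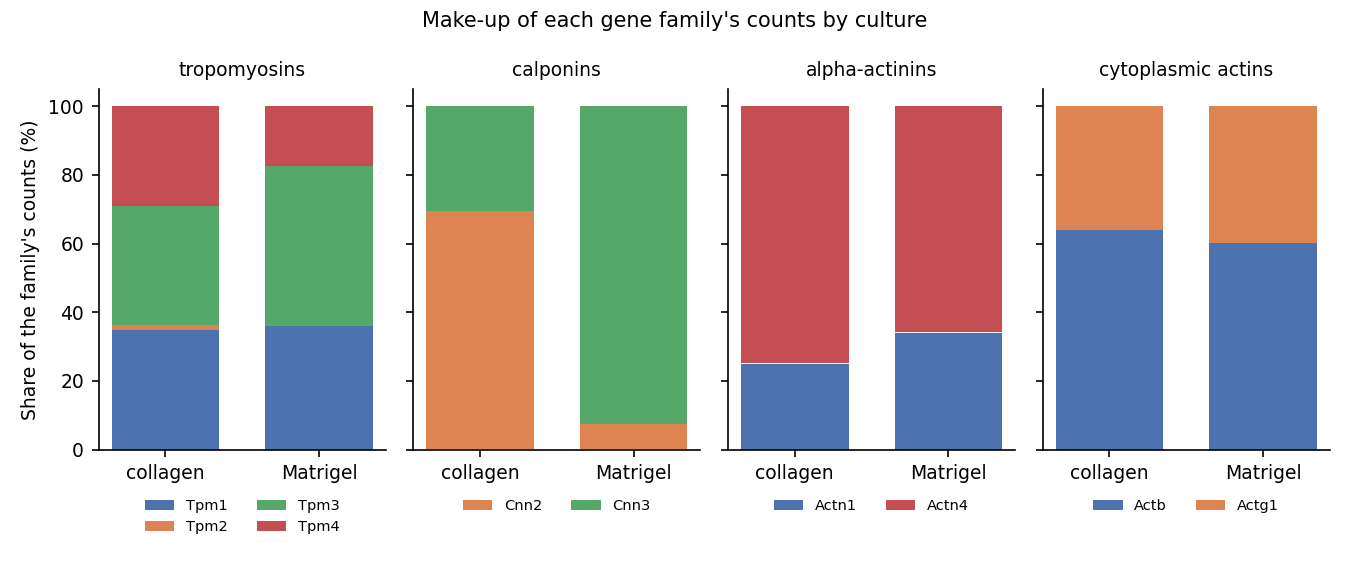
Share of each family's counts (%) held by each gene, in collagen and Matrigel cells. Members under 1% in both cultures are not drawn. Cnn2 takes 69.5% of calponin counts in collagen and 7.42% in Matrigel, while the split of the actins and alpha-actinins differs by under 10 percentage points.

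Of the alpha-actinin genes, Actn4 stood at 248 CPM (244 to 253) against 145 CPM (144 to 147), a log2 ratio of 0.77. Actn1 stood at 83.3 CPM (80.6 to 86.1) against 75.1 CPM (74.1 to 76.1), a log2 ratio of 0.15. Both encode the crosslinkers of non-muscle cells. Actn4 made up 74.7% of alpha-actinin counts in collagen (73.9 to 75.4) and 65.7% in Matrigel (65.4 to 66.1), and the muscle genes Actn2 and Actn3 were each under 1% in both. The single-cell medians of Actn1 were close, at 69.6 and 68.1 CPM.

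The cytoplasmic actin genes were the most abundant of the set and lay just under 2-fold. Actb, the beta-actin gene, stood at 4501 CPM (4481 to 4521) against 2339 CPM (2334 to 2345), a log2 ratio of 0.94. With the mean over cells in place of the sum it was 1.03, past 2-fold. Actg1, the gamma-actin gene, stood at 2530 CPM (2515 to 2546) against 1551 CPM (1546 to 1555), a log2 ratio of 0.71. Single cells of the cultures differed widely in Actb, with 74.1% of collagen cells above the Matrigel 90th percentile of 3078 CPM. The levels of both genes are uncertain, since 45.8% of Actb and 99.9% of Actg1 values above 0 were not whole. With only whole-number values counted, the log2 ratio of Actb was 0.52. For Actg1 this setting gave -0.05, but almost no values were left in it, so it does not check the Actg1 ratio.

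The second comparison was between collagen cells with and without Sprr1a, which encodes a small proline-rich protein of the cornified envelope. Sprr1a stood at 155 CPM in collagen and 1.72 CPM in Matrigel cells. Of the collagen cells, 74 had a count and 262 had none. The 5 highest cells held 66.1% of its collagen counts. At equal depth, the share of cells with Sprr1a was 14.4% in collagen (10.4 to 19.2) and 2.71% in Matrigel (1.94 to 3.67). Free RNA can give single counts in cells that do not express a gene, and 63 collagen cells had at least 2 counts.

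Tpm2 alone of the 10 genes was at least 2-fold higher in Sprr1a-positive cells (1 of 10, against 2.46% of 10216 genes). None was at least 2-fold lower, against 5.51% of all. Tpm2 stood at 27.7 CPM (24.2 to 31.5) in the positive and 11.6 CPM (10.5 to 12.8) in the negative cells, a log2 ratio of 1.19. It had a count in 34 of 74 positive cells (45.9%) and 59 of 262 negative cells (22.5%), or in 27.03% (17.4 to 38.6) and 13.7% (9.81 to 18.5) after thinning to 20000 counts. Most cells with Tpm2 thus had no Sprr1a, and 40 cells had Sprr1a without Tpm2.

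Tpm4 followed at 403 CPM (389 to 417) against 241 CPM (236 to 246), a log2 ratio of 0.74. Cnn2 stood at 148 CPM (140 to 157) against 100.1 CPM (96.8 to 104), a log2 ratio of 0.56, and Actn1 at 109 CPM (102 to 117) against 76.9 CPM (74.01 to 79.9), a log2 ratio of 0.50. Actb had a log2 ratio of 0.38, Tpm1 0.31, Actn4 0.29 and Actg1 0.20. Cnn3 (0.04) and Tpm3 (-0.03) were near 0. The calponins therefore did not mirror each other here as they did between the cultures. The median over the 10 genes was 0.34 and over all genes -0.16, and each of the 10 lay above that all-gene median.

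**Figure D4:**
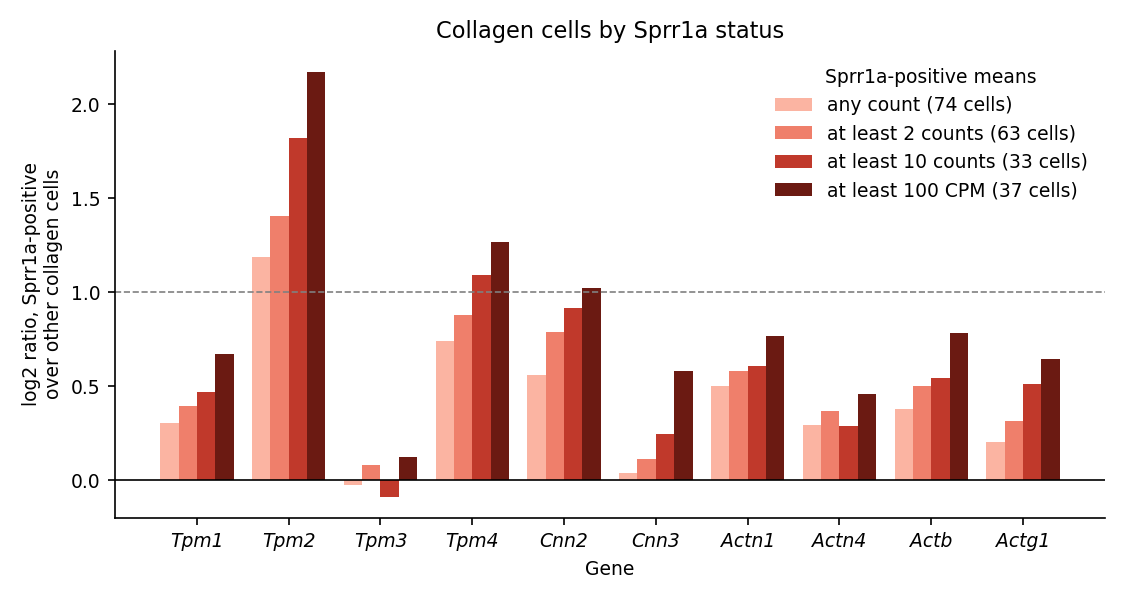
Log2 ratio of each gene in Sprr1a-positive over all other collagen cells (1 CPM added), under rules that ask for any count (74 positive cells), at least 2 counts (63), at least 10 counts (33) or at least 100 CPM (37). The dashed line marks 2-fold. Tpm2 stands highest under every rule, from 1.19 to 2.17, Tpm4 runs from 0.74 to 1.26 and Tpm3 stays near 0.

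Under stricter rules for Sprr1a most ratios were larger, and the cells so chosen were shallower. With at least 100 CPM of Sprr1a, 37 positive cells (median 59059 counts, against 126698 in the others) had log2 ratios of 2.17 for Tpm2, 1.26 for Tpm4, 1.02 for Cnn2, 0.78 for Actb and 0.58 for Cnn3. Depth moved with these results. Among the collagen cells below the 25th percentile of counts, a split added after the values were seen, 31 positive cells stood against 53 negative cells, and the log2 ratios were 2.16 for Tpm2 (118 against 50 counts), 1.66 for Tpm4 and 1.63 for Cnn2. In the other cells, 43 positive against 209 negative with medians of 146489 and 139293 counts, they were 0.53 for Tpm2, 0.53 for Tpm4 and 0.27 for Cnn2. No gene passed 2-fold there, so the call of Tpm2 rests on the shallow cells.

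The differences between the cultures were also present without the Sprr1a cells. Sprr1a-negative collagen cells against all Matrigel cells had log2 ratios of 3.45 for Tpm2, 3.06 for Cnn2, 1.19 for Tpm4 and -1.52 for Cnn3. In Matrigel, 89 cells had Sprr1a, of which 19 had at least 2 counts and 1 had at least 10. The log2 ratio by Sprr1a status was at most 0.19 in size for each of the 10 genes. Most of these positive cells held a single count, so the ratios say little about Matrigel cells that express Sprr1a.

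Cells of 1 culture also differed among themselves, as seen with splits chosen after values had been seen. In Matrigel, Cnn3 stood at 154 CPM (152 to 155) in 1267 cells with Olfm4, a crypt stem cell gene, and at 73.1 CPM (70.9 to 75.5) in 332 cells without it. Cnn2 went the other way, at 10.01 CPM (9.61 to 10.4) and 15.9 CPM (14.9 to 17.02). In the 129 Matrigel cells with at least 100 CPM of Alpi, the brush border phosphatase gene, the level of Cnn3 was 59.9 CPM (56.9 to 63.1), and the other cells had 146 CPM (144 to 147). Cnn3 was thus lower in Matrigel cells with Alpi or without Olfm4, and in both it was still above the 47.9 CPM of collagen cells. In collagen, Cnn3 stood at 29.4 CPM (26.4 to 32.6) in 101 cells with at least 100 CPM of the mucin gene Muc3 and at 55.1 CPM (52.5 to 57.8) in the other 235.

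Collagen cells with Ly6a, which encodes the surface antigen Sca-1, had higher levels of several members. Only Tpm2 was past 2-fold, with a log2 ratio of 1.16, followed by Tpm4 at 0.64. The split was computed for the 10 genes only, so no share of all genes stands beside it. In 151 cells with and 185 without Ly6a, Tpm2 stood at 21.2 CPM (19.2 to 23.3) and 8.96 CPM (7.76 to 10.3). Tpm4 stood at 336 CPM (328 to 344) and 215 CPM (209 to 221), and Actb at 5143 CPM (5111 to 5174) and 3914 CPM (3888 to 3940). Actg1 was nearly the same in both, at 2530 CPM (2508 to 2552) with and 2531 CPM (2510 to 2552) without, unlike Actb. Low values of Ly6a and Olfm4 are absent from the table, so these cells are cells above a threshold set per gene.

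Correlations between members over single cells were higher in collagen than in Matrigel, as were those between genes at large. Over the 45 pairs of the 10 genes, the median Spearman correlation was 0.15 in 264 thinned collagen cells, with 11 pairs above 0.3, and 0.027 in 1477 thinned Matrigel cells, with 1 such pair. Among the 9258 genes found in at least 20% of the thinned cells of both cultures, 0.228% of all pairs were above 0.3 in collagen and 0.0357% in Matrigel, with medians of 0.012 and 0.0046. Tpm2 did not meet this rule. Over the 36 pairs of the other 9 members, 30.6% were above 0.3 in collagen and 2.78% in Matrigel, with medians of 0.19 and 0.040. The 9258 genes include many sparse genes, so the members are not matched to them in level. Actb and Actg1 were the closest pair in both, at 0.58 and 0.44. Of their values above 0, 45.8% and 99.9% were not whole, so correlations that include either gene are uncertain too. In collagen Tpm4 followed Actb (0.53), Actg1 (0.43) and Cnn2 (0.42), and Cnn2 followed Actb (0.47). The highest correlation of Tpm2 with another member was 0.22, with Cnn2. The 72 collagen cells below the thinning depth enter neither these correlations nor those of the next paragraph. All cells of a culture share 1 library and suspension, and these values are descriptions.

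Among the 9732 genes found in at least 20% of the thinned collagen cells, the 5 most like Tpm2 were Lgals3 (Spearman correlation 0.36), Esd (0.34), Emp1 (0.33), Anxa2 (0.32) and Krt7 (0.32). The 5 most like Cnn2 were Anxa3 (0.49), Krt19 (0.47), Actb (0.47), Anxa2 (0.46) and Lgals3 (0.46). The 5 most like Cnn3 were Ptma (0.39), Marcksl1 (0.38), Tuba1b (0.38), Ranbp1 (0.37) and Snrpd1 (0.37). The genes beside Tpm2 and Cnn2, with Lgals3 and Anxa2 in both lists, had a higher level in collagen cells. Those beside Cnn3 had a lower one. The share of the 9732 genes on each side is not given, so these directions have no background here.

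Other genes of the actin cytoskeleton were read from 12 lists by role, in which 85 of 112 symbols reached 5 CPM. Of these, 20 were at least 2-fold higher in collagen, 4 were at least 2-fold lower and 61 lay within 2-fold, with a median log2 ratio of 0.46. Over all 10593 genes, 8.21% were higher, 8.91% were lower and the median was -0.02, which is the background for each list below. The 4 lower genes were Lcp1, Marcksl1, Mylk and Evl.

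The capping and severing list had 2 of 8 genes higher and none lower (median 0.55). They were Capg, which caps filament ends, at 175 against 13.4 CPM, and the severing protein gene Gsn at 32.0 against 4.21 CPM. Among bundling and crosslinking genes 3 of 14 were higher and 2 lower (median 0.27, or 0.01 with every gene that had a count). Pdlim7 stood at 20.5 against 3.81 CPM, while the plastin gene Lcp1 stood at 7.18 against 43.1 CPM. Pdlim7 and Lcp1, named for the size of their ratios, thus stood on opposite sides within this list of mixed gene families.

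In the list of turnover and monomer binding, 5 of 14 genes were higher and none lower (median 0.79), with destrin, Dstn, at 780 against 340 CPM and Twf1 at 257 against 118 CPM. The Arp2/3 complex, which starts branched filaments, had 2 of 9 higher and none lower (median 0.75), with Arpc5 at 344 against 161 CPM. Of the formin and Ena/VASP genes 2 of 8 were higher and 1 lower (median 0.28), with Vasp at 323 against 150.4 CPM. Of the non-muscle myosin II genes 2 of 8 were higher and 1 lower (median 0.70), the higher ones being Myl12b at 214 against 80.6 CPM and Myh14 at 109 against 44.1 CPM, and the lower one the kinase gene Mylk. The values of Dstn and Myl12b were not whole in 99.7% and 99.2% of cases, so their levels are uncertain.

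The linkers to membrane and adhesions had 1 of 9 higher, the ezrin gene Ezr at 248 against 122 CPM, and none lower (median 0.26), while the adhesion gene Zyx stood at 21.7 against 39.4 CPM. SRF and its co-activators had 3 genes within 2-fold (median -0.43). In the calponin family, the transgelin gene Tagln2 stood at 490.2 against 242 CPM.

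**Figure D5:**
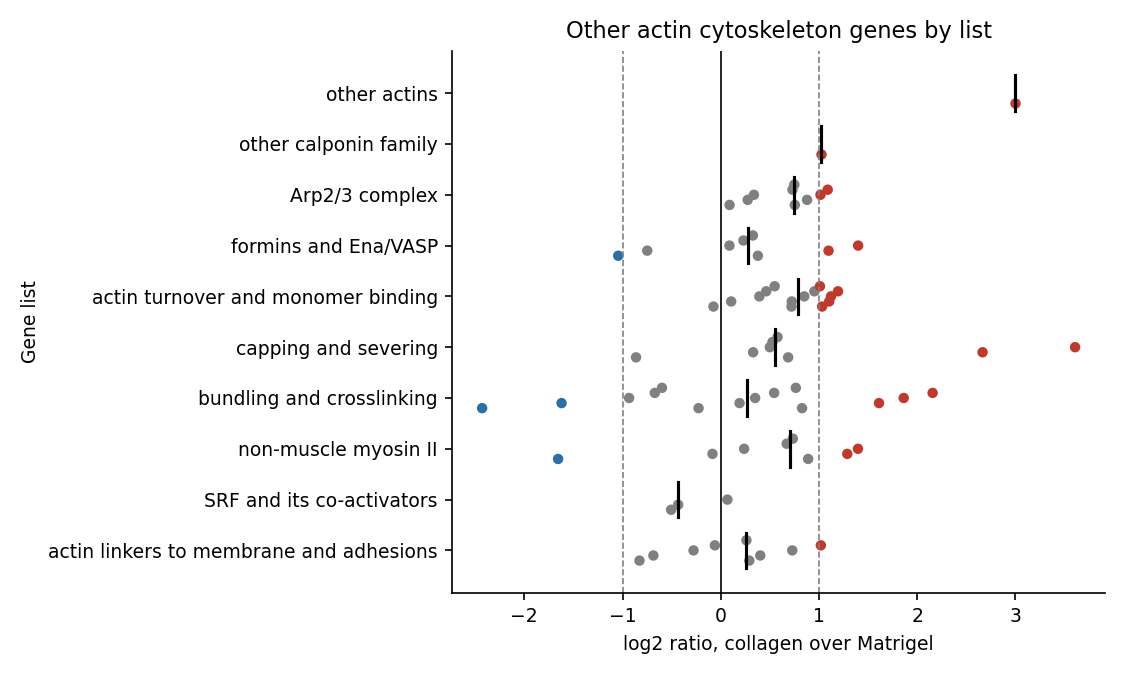
Log2 ratio of collagen over Matrigel for the actin cytoskeleton genes that reached 5 CPM, by list, for the lists described in the text. Each point is a gene, red at least 2-fold higher, blue at least 2-fold lower and grey between, black ticks are list medians and dashed lines mark 2-fold. Most points lie between 0 and 1, with Capg (3.61) and Acta1 (3.00) furthest to the right.

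Acta1, the skeletal muscle actin gene, was the 1 other actin gene that reached 5 CPM, at 157 CPM (153 to 161) in collagen and 18.7 CPM in Matrigel cells. A count was found in 153 collagen and 473 Matrigel cells, and 5 collagen cells held 48.7% of its collagen counts. Markers of smooth muscle were near 0. None of 8 smooth muscle and myofibroblast markers reached 5 CPM, and their sum was 1.56 CPM in collagen and 1.55 CPM in Matrigel cells. That sum was 1.49 CPM in the 93 collagen cells with Tpm2 and 1.59 CPM in the 243 without. The 7 fibroblast markers summed to 1.36 and 1.29 CPM and the 4 mesothelium markers to 9.95 and 11.04 CPM. The mesothelium sum was 8.66 CPM in collagen cells with Tpm2 and 10.5 CPM in those without. Msln, the mesothelin gene, was not in that list. Over 264 thinned collagen cells its Spearman correlation was 0.29 with Tpm2 and 0.35 with Cnn2, and below 0 with Cnn3 (-0.08) and Actg1 (-0.04). What lies behind these correlations was not tested.

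The 6 epithelial markers all reached 5 CPM, and their sum was 9818 CPM in collagen and 4551 CPM in Matrigel cells. In collagen cells with Tpm2 it was 11856 CPM and in those without 9033 CPM. The 6 squamous-type markers in the table, Sprr1a among them, summed to 181 CPM in collagen and 2.64 CPM in Matrigel cells. Their sum was 389 CPM in collagen cells with Tpm2 and 100.4 CPM in those without. Sprr1a alone was 155 CPM of the 181 CPM, so this sum largely repeats the split by Sprr1a. Krt5, Krt14 and Trp63, which mark squamous basal cells, were each under 1 CPM in both cultures. The 5 markers other than Sprr1a, mostly Ly6d at 18.5 CPM and Anxa8 at 6.40 CPM, summed to 74.6 CPM in collagen cells with Tpm2 and 6.92 CPM in those without. For both genes, the 5 highest cells held 90.6% and 83.0% of the collagen counts, and their part in the Tpm2 level was not tested.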

How the data were processed

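The authors made estimated counts per gene and cell, not scaled, deposited as 1 table of 37172 genes and 2090 cells. The submitters' processing notes name STARsolo 2.7.10a, cutadapt 4.1, R 4.2.1 and build GRCm39, with no role given. Whether the counts are collapsed per molecule was not found in those notes, and if copies were counted the intervals are too narrow. Cell names in the table set the culture. The 139 cells named as doublets were left out, and no caller was run. Hashtag counts deposited by the authors served only in an alternative. A minimum of 500 genes and a maximum of 30% mitochondrial counts per cell removed 16 Matrigel cells. Sums were rounded for intervals (scipy 1.17.1). Thinning to 77972 counts, the 10th percentile, left out 72 collagen and 122 Matrigel cells. Of all values above 0, 75.6% were whole (within 1e-06).

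The members and lists were chosen with earlier results of these data known. Up to 3 genes of each list, reaching 20 CPM, were named by size of ratio, with 5 most alike genes for Tpm2, Cnn2 and Cnn3. Marcksl1, Mylk and Evl were named after their values were seen. A few list results are left out of the text. The calculation was tested on simulated data, with ratios set only in genes of higher level than Tpm2 or than Cnn2 in Matrigel. Ratios at such low levels were not checked in this way.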

Additional observations from a re-analysis of the deposited data

How the results depend on the processing

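Between the cultures, 12 alternatives were computed for each of the 10 genes: no cell filter, an own hashtag share of at least 95%, the mean of cell CPM, thinned cells, a total without the 1% most abundant genes, the all-gene median set to 0, pseudocounts of 0.1 and 5 CPM, values rounded down, whole-number values only, collagen cells without Sprr1a, and the 5 highest cells left out. Each gene kept its side of 2-fold in all 12, except Actb (1.03 with the mean of cell CPM). The whole-number alternative says little for Actg1 and Tpm3, since 99.9% and 93.7% of their values above 0 were not whole. Tpm2 ranged from 1.94 with a pseudocount of 5 to 5.85 with 0.1, since its Matrigel level is below 1 CPM. With 1.5-fold in place of 2-fold, 6 genes were higher, and at 3-fold 0 were lower. Setting zeros to the smallest kept value was not run, because Actb and Actg1, with smallest values of 6 and 1.5, were at 0 in no cell and the other members had values of 1 or less. By Sprr1a status, where 1 gene was higher, the number past 2-fold was 2 at 10 counts or more (4.08% of all genes, against 2.46% with any count), 3 at 100 CPM or more (4.64% of all genes), 2 after thinning with status as deposited, 3 with status after thinning and 2 with the mean of cell CPM. It was 0 without the cells below the 25th percentile of counts, 3 in those cells alone (an alternative added after seeing the data) and 0 with a pseudocount of 5 CPM. At 1.5-fold it was 2 and at 3-fold 0. The cause of these moves was not tested. A share of all genes is given only beside rules on the Sprr1a count or level. The counts in the other settings, and those at 1.5-fold and 3-fold between the cultures, thus have no background here. Of the actin lists, 2 genes were lower at 20 CPM in place of 4 at 5 CPM, because fewer genes entered. No paired analysis was possible because each culture was 1 suspension.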

Other observations

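Collagen cells with a count of Mki67, a gene of cycling cells, had lower levels of most members than cells without it, in a split chosen after values had been seen. Tpm2 stood at 11.1 CPM (9.79 to 12.5) in 164 cells with Mki67 and 19.3 CPM (17.4 to 21.4) in 172 without. Cnn2 stood at 90.9 CPM (87.1 to 94.9) and 133 CPM (128 to 138), and Actb at 3970 CPM (3944 to 3995) and 5152 CPM (5120 to 5184). Cnn3 went the other way, at 52.5 CPM (49.6 to 55.5) and 42.4 CPM (39.5 to 45.4). So did Tpm3, at 332 CPM (325 to 340) with and 309 CPM (301 to 317) without Mki67. In Matrigel the levels of Actb were closer, at 2342 CPM in 1070 cells with Mki67 and 2332 CPM in 529 without. The cells with Mki67 were deeper in both cultures. Medians were 138396 against 113481 counts in collagen and 189480 against 155340 in Matrigel, and the part of depth was not tested. Over collagen cells thinned to 77972 counts, Spearman correlations with Mki67 were -0.02 for Tpm2, -0.01 for Tpm1, -0.04 for Tpm4 and 0.07 for Actn1. They were -0.22 for Actb, -0.19 for Actn4, -0.16 for Actg1, -0.15 for Cnn2, 0.06 for Tpm3 and 0.19 for Cnn3. The split was computed for the 10 genes only, so no share of all genes stands beside it.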
